A study of Mus musculus with 20 samples.

Results

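Collagen genes encode the chains of the collagens, the triple-helical proteins that build the extracellular matrix. They were taken as every row of the bone marrow and kidney tables whose symbol is Col, a number, the letter a and a number, such as Col1a1. The rule found 44 genes among the 55486 listed, and it used no measured value. RNA had been sequenced from 10 mice per tissue, 5 given vehicle and 5 given oxaliplatin, a platinum-based cytostatic that crosslinks DNA, which makes 20 libraries in 4 groups. All mice were C57BL/6, males and females according to the methods, and 10 weeks old at the start. The treated mice received oxaliplatin at 10 mg/kg by intraperitoneal injection in 5% dextrose, the vehicle mice 5% dextrose, for 8 weeks. Marrow was spun out of tibia and femur 6 days after dosing ended and is therefore a mixture of blood-forming and stromal cells without a sort, and neither the collection of kidney nor whether both tissues came from the same mice is described. In a bulk sample, fewer cells of a type and less RNA per cell cannot be told apart.

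A collagen molecule is wound from 3 chains, and the combination of chains sets its place. Fibril-forming collagens (types I, II, III, V, XI, XXIV and XXVII) give tensile strength to bone, skin and scar. Collagen IV is the network of basement membranes: its alpha-1 and alpha-2 chains occur in nearly all of them, whereas the alpha-3, alpha-4 and alpha-5 chains form the network of the mature glomerular filter of the kidney. Collagen VI makes beaded microfilaments around cells, fibril-associated collagens decorate fibrils, and the multiplexins, types XV and XVIII, sit at basement membranes, the latter being the source of endostatin. In marrow most collagen is made by stromal, bone-lining and vascular cells, and in kidney by interstitial fibroblasts, pericytes, mesangial cells, podocytes and endothelium.

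Promoter sequences are shown for members that define the responses described further on: Col6a1 and Col6a2, which rose most in kidney, Col18a1, which rose most in marrow, and Col19a1, which fell in both. They are RefSeq sequences of GRCm38.p6, cut to the bases before the start that lie in no annotated exon, all on the minus strand and written 5′ to 3′. Capitals mark a CCAAT box (CCAAT) or a GC box (GGGCGG), on either strand. The windows lie at chr10:76726169-76726294 for Col6a1, chr10:76623631-76623880 for Col6a2, chr10:77166549-77166780 for Col18a1 and chr1:24587473-24587687 for Col19a1.
Col6a1: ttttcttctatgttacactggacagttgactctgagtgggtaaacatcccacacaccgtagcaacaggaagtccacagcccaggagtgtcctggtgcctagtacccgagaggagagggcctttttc
Col6a2: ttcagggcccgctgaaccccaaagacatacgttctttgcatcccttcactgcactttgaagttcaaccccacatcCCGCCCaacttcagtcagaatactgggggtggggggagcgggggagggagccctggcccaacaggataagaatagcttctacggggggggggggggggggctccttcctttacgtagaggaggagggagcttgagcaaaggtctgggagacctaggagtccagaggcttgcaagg
Col18a1: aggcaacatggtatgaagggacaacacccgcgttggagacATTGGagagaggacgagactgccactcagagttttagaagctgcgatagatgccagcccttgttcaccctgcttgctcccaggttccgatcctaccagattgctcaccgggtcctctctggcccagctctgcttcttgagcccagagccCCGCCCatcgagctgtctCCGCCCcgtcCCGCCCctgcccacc
Col19a1: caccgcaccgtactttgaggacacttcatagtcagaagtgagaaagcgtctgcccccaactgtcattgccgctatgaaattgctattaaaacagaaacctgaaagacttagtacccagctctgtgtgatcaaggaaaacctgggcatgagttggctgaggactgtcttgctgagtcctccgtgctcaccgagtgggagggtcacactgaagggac
The window of Col18a1 holds 1 CCAAT box and 3 GC boxes and that of Col6a2 holds 1 GC box, while neither motif is in those of Col6a1 and Col19a1. The stretches shown are 126 bases for Col6a1, 215 for Col19a1, 232 for Col18a1 and 250 for Col6a2. In the shorter ones the bases nearest the start were cut off, so motifs there are not counted. Col4a1 and Col4a2 lie head to head on chromosome 8 and are transcribed in opposite directions from a shared start region. Their annotated starts overlap by 22 bases at chr8:11312805-11312826, which hold a GC box, shown in capitals and read on the strand of each gene.
Col4a2 strand: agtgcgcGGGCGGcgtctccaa
Col4a1 strand: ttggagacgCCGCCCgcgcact
Use of strand in counting is not given, and reads within these 22 bases could then not be assigned to 1 of the genes.
Windows from 250 bases before to 50 after the start were found for 35 of the 44 genes, 38 windows in all. GGGCGG occurred on either strand in 23 of the 38 (60.5%), against 35.7% of the 32851 windows of all genes, CCAAT in 13 (34.2% against 37.4%) and TATAAA in 5 (13.2% against 13.6%). A motif match describes the letters and is not evidence of binding.

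The marrow libraries held 30660153 to 41140527 counts and the kidney libraries 24393007 to 30925430. At this depth 3 counts, taken as the floor, were 0.0668 to 0.0975 CPM (counts relative to the TMM-scaled library size) in marrow and 0.0900 to 0.130 CPM in kidney, covering counting error only. Y-linked transcripts were measured in all 20 libraries, although the methods name both sexes. Kidney tubule genes summed to 25222 to 29767 CPM in vehicle kidney and 8.00 to 12.9 CPM in vehicle marrow, and hematopoietic genes to 189.6 to 298 and 21075 to 35964 CPM. No 2 libraries of a group agreed within sampling noise.

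With vehicle, the 2 tissues used different collagens. Levels between genes are given as CPM per kilobase of the longest protein-coding transcript. In marrow the fibril-forming class made up 69.8% ± 5.58 (SD, n = 5) of the summed collagen level, led by Col1a1 at 49.9 ± 20.6 and Col1a2 at 47.1 ± 11.6 CPM per kilobase, the 2 chains of type I collagen of bone. Those 2 levels did not differ beyond their SD. Collagen IV made up 10.8% ± 1.99 and collagen VI 10.7% ± 2.52 of the marrow sum. In kidney collagen IV made up 55.4% ± 0.834, the fibril-forming class 19.2% ± 0.835 and the multiplexins 14.3% ± 0.589. The highest kidney levels per kilobase were Col4a4 at 45.0 ± 1.58, Col4a1 at 41.5 ± 2.32, Col18a1 at 38.1 ± 2.53, Col4a3 at 36.0 ± 2.61, Col4a2 at 34.1 ± 2.21 and Col27a1 at 25.3 ± 2.23, and among the first 5 of these neighbours in the order had overlapping ranges of 1 SD.

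Between the vehicle groups of the tissues, 36 of 43 collagen genes tested differed, 21 higher in kidney and 15 higher in marrow, in edgeR's two-sided quasi-likelihood test over all genes (called where the change exceeded 1.5-fold at a Benjamini-Hochberg adjusted p below 0.05). Of all 24321 genes 72.9% were called in this contrast. Kidney exceeded marrow by a log2 difference of 8.87 for Col4a3, 8.31 for Col4a4 and 7.64 for Col4a5, the glomerular chains, and by 5.46 for Col18a1. Marrow exceeded kidney most for Col22a1 (-6.13), Col11a1 (-5.62), Col11a2 (-3.98) and Col1a1 (-3.55). In vehicle kidney Col22a1 was under the floor (0 to 0.0864 CPM) and Col11a1 near it (0 to 0.229 CPM), so the size of these differences is uncertain. The methods describe RNA extraction for marrow only, so tissue and any difference in extraction cannot be told apart in these levels.

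**Figure D1:**
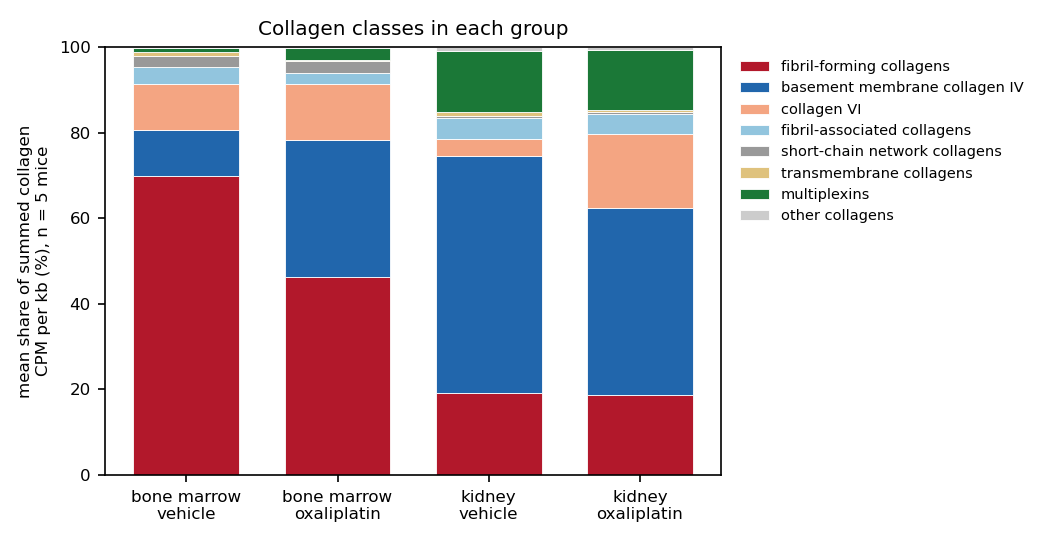
Mean share of the summed collagen level (CPM per kilobase of transcript, percent) taken by each of 8 classes of collagen, by tissue and treatment. The spread between mice is not drawn. Fibril-forming collagens made up most of the sum in vehicle marrow and collagen IV most of it in vehicle kidney, and after oxaliplatin the share of collagen IV was larger in marrow and that of collagen VI larger in kidney.

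After oxaliplatin collagen RNA in marrow was higher relative to the library, with a different mixture of chains. The absolute amount of collagen RNA was not measured. All members together came to 891 to 1507 CPM with vehicle and 1626 to 4436 CPM with oxaliplatin, and the ranges did not overlap. Of 42 members tested, 16 were higher and 5 lower, which is 21 of 42, where 23.3% of all 22363 genes tested were called (11.6% higher and 11.8% lower). Their median log2 fold change was 0.51, against -0.04 for all genes. The groups did not overlap for 9 of the higher and 4 of the lower members, where 24.9% of all genes tested did not overlap (11.4% higher and 13.5% lower). The other 21 had log2 fold changes from -0.68 to 1.13 and adjusted p from 0.0701 to 0.920, and Col9a1 and Col24a1 had too few counts to be tested (24 counts at most in a library). Of all 5221 called genes 49.6% were higher, and with scaling by library size alone 63.4%, when the median of all genes moved to 0.11. With that scaling 19 members were called, without Col4a6, Col11a2 and Col25a1, the calls lost being 3 of the 5 falls, and with Col26a1 added.

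The share of the collagen level in fibril-forming chains was 46.4% ± 7.51 after oxaliplatin, that of collagen IV 31.9% ± 6.78, that of collagen VI 13.2% ± 2.95 and that of the multiplexins 2.78% ± 0.591, from 0.801% ± 0.230 with vehicle. These shares are descriptions without a test.

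The 4 largest rises were in basement membrane collagens, Col18a1, Col4a1, Col4a2 and Col15a1. Col4a1 was 78.8, 65.6, 83.2, 82.7 and 71.7 CPM with vehicle and 653, 328, 368, 951 and 389 CPM with oxaliplatin (log2 fold change 2.81 ± 0.28, adjusted p = 1.11e-05). Col4a2, its partner in the same trimer, was 56.9, 46.4, 65.5, 59.6 and 59.9 CPM with vehicle and 446, 205, 231, 676 and 279.7 CPM with oxaliplatin (log2 fold change 2.67 ± 0.31, adjusted p = 4.47e-05). For both genes the lowest treated mouse lay above the highest vehicle mouse, and mouse 4 of the treated group was the highest. Col18a1, the endostatin precursor, was 5.41, 4.25, 7.59, 6.04 and 5.10 CPM with vehicle and 54.5, 30.2, 49.3, 95.4 and 36.4 CPM with oxaliplatin (log2 fold change 3.23 ± 0.30, adjusted p = 8.77e-06), the largest rise of a member in marrow at 9.36-fold. Col15a1, its relative, was 2.18, 2.47, 3.47, 2.91 and 2.73 CPM with vehicle and 8.50, 4.89, 15.4, 52.8 and 3.37 CPM with oxaliplatin (log2 fold change 2.63 ± 0.68, adjusted p = 0.0112). The groups overlapped at their edges, and without treated mouse 4, the highest, the log2 fold change was 1.55. Of the remaining collagen IV chains Col4a5 was 0.570, 0.582, 0.315, 0.114 and 0.325 CPM with vehicle and 1.15, 1.07, 1.03, 1.51 and 0.701 CPM with oxaliplatin, and rose without overlap (log2 fold change 1.51 ± 0.40, adjusted p = 0.0105). Col4a6 fell (log2 fold change -1.15 ± 0.40, adjusted p = 0.0435), a call lost without any 1 of 8 mice, all but vehicle mouse 1 and treated mouse 4 (adjusted p 0.0588 to 0.0944). Col4a3 was 0.760, 0.757, 0.756, 1.08 and 0.455 CPM with vehicle and 0.778, 1.79, 0.816, 0.868 and 0.539 CPM with oxaliplatin and its groups overlapped (log2 fold change 0.32 ± 0.36, adjusted p = 0.54).

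Of the fibril-forming class 3 of 10 tested members rose, 1 fell and 6 were not called. Col1a1, the major chain of bone collagen, was 380.5, 228, 218, 342 and 559 CPM with vehicle and 282, 219.6, 607, 557 and 161 CPM with oxaliplatin. Its groups overlapped fully (log2 fold change 0.08 ± 0.38, adjusted p = 0.898), with treated mouse 3 the highest and treated mouse 5 the lowest of all 10. Col1a2, the second chain of type I, was 299, 216, 235, 334 and 389 CPM with vehicle and 569, 355, 558, 699 and 310.3 CPM with oxaliplatin (log2 fold change 0.76 ± 0.23, adjusted p = 0.0212), with overlapping groups, and without any 1 of 4 mice (vehicle mouse 2 or 3, treated mouse 3 or 4) it was not called (log2 0.61 to 0.71, adjusted p 0.0555 to 0.0588). Col3a1, abundant in soft connective tissue, was 15.0, 10.6, 22.2, 22.0 and 14.6 CPM with vehicle and 41.9, 29.5, 63.0, 85.5 and 27.2 CPM with oxaliplatin (log2 fold change 1.55 ± 0.33, adjusted p = 0.00366). Col5a2, a type V chain that is built into type I fibrils, was 22.8, 15.8, 22.1, 19.2 and 28.0 CPM with vehicle and 76.9, 41.2, 68.9, 117 and 40.6 CPM with oxaliplatin (log2 fold change 1.68 ± 0.28, adjusted p = 0.000701). Both were higher in every treated mouse than in any vehicle mouse. Col5a1, which pairs with Col5a2, was not called (log2 fold change 0.36 ± 0.14, adjusted p = 0.0701). The fall was in Col11a2, a chain of cartilage fibrils (log2 fold change -0.68 ± 0.13, adjusted p = 0.00122), and without vehicle mouse 5 its change was under 1.5-fold (-0.56).

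Collagen VI contributed 3 rises of 6. Col6a3, the longest of its classical chains, was 29.7, 26.4, 35.8, 31.5 and 34.5 CPM with vehicle and 296, 98.4, 113, 325 and 56.4 CPM with oxaliplatin (log2 fold change 2.49 ± 0.44, adjusted p = 0.00107). Col6a1 was 40.9, 41.3, 52.9, 54.3 and 37.4 CPM with vehicle and 136, 66.0, 107, 193 and 49.98 CPM with oxaliplatin (log2 fold change 1.28 ± 0.32, adjusted p = 0.00862). Col6a2 also rose (log2 fold change 1.33 ± 0.37, adjusted p = 0.0173), and without treated mouse 3 was not called (1.31, adjusted p 0.0634). Treated mice 1 and 4 were highest and mouse 5 lowest for Col6a1 and Col6a3, and for Col6a1 mouse 5 lay within the vehicle range.

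Fibril-associated collagens moved both ways, with 3 higher and 2 lower of 8 tested. Col14a1, which binds fibrils in skin and tendon, showed the largest change of any member in marrow. It was 17.4, 14.5, 11.3, 23.6 and 11.0 CPM with vehicle and 0.979, 1.35, 2.40, 1.51 and 1.37 CPM with oxaliplatin and fell 10.2-fold (log2 fold change -3.35 ± 0.28, adjusted p = 1.91e-06), with no overlap. Col12a1, the closely related type XII chain, went the other way, at 19.0, 14.3, 25.1, 17.1 and 25.8 CPM with vehicle and 82.1, 41.2, 64.9, 125 and 48.9 CPM with oxaliplatin (log2 fold change 1.84 ± 0.29, adjusted p = 0.000454). Col19a1, a basement membrane zone collagen, was 1.61, 1.28, 1.64, 0.627 and 0.682 CPM with vehicle and 0.0288, 0.407, 0.210, 0.534 and 0.135 CPM with oxaliplatin (log2 fold change -2.12 ± 0.55, adjusted p = 0.00903), with 1 treated mouse under the floor. Col16a1 was called higher (0.75 ± 0.25, adjusted p = 0.0314), but not without vehicle mouse 1, 2, 4 or 5 or treated mouse 1 or 4 (adjusted p 0.0625 to 0.0864). Col9a2, a cartilage chain, was called higher from under 1 CPM (1.38 ± 0.46, adjusted p = 0.0358), and was called only in the fits without vehicle mouse 2 or treated mouse 5 among those that left out 1 mouse (adjusted p 0.0511 to 0.0867 in the rest). Col8a1, a short-chain collagen of vessel walls, was 17.1, 13.4, 15.4, 10.9 and 20.7 CPM with vehicle and 54.2, 26.9, 55.0, 91.8 and 22.6 CPM with oxaliplatin (log2 fold change 1.69 ± 0.35, adjusted p = 0.00316). Col28a1 was called higher (1.13 ± 0.37, adjusted p = 0.033), but not without vehicle mouse 1, 2 or 3 or treated mouse 1 or 4 (adjusted p 0.0696 to 0.0896). Col25a1, a transmembrane collagen of neurons, was called lower (-1.35 ± 0.46, adjusted p = 0.0366), but not without any 1 of the vehicle mice or treated mouse 1 or 2 (adjusted p 0.0501 to 0.0993).

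**Figure D2:**
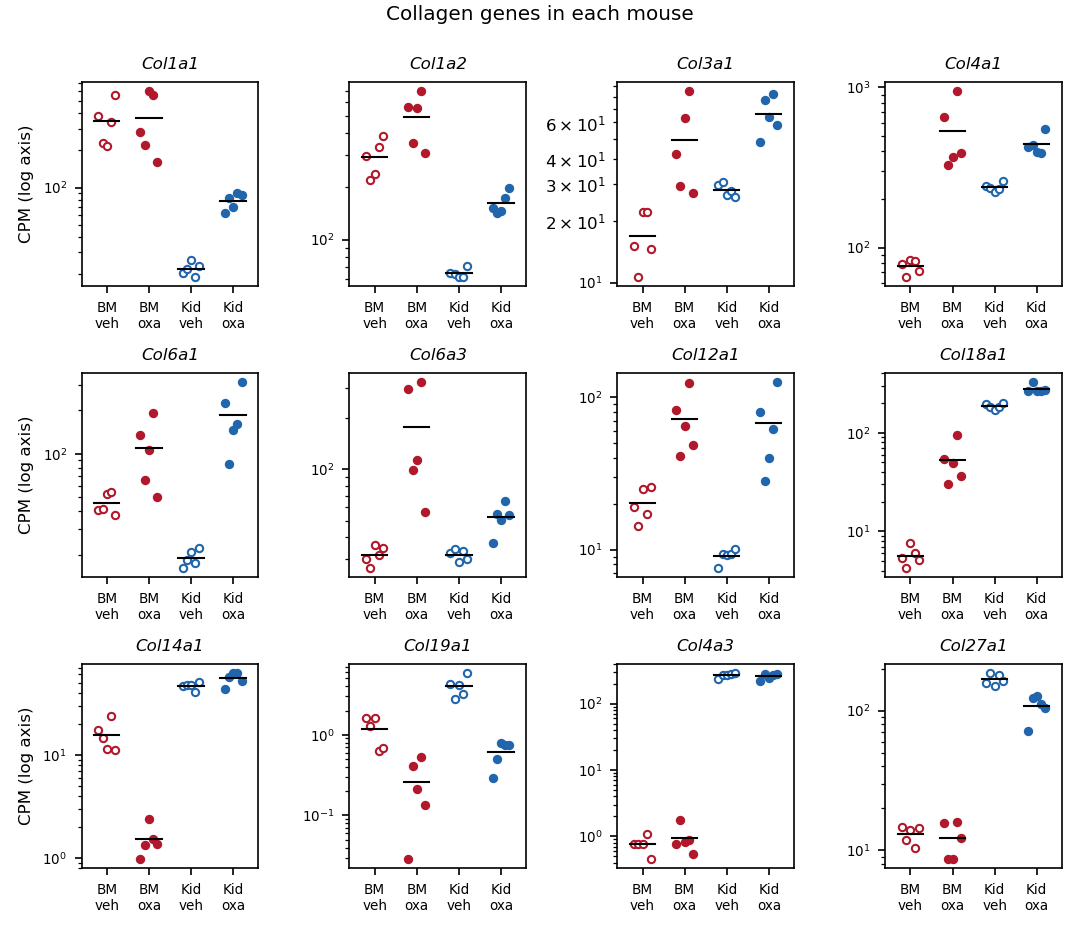
CPM on a log axis in each mouse for 12 collagen genes, open points for vehicle, filled for oxaliplatin, red for bone marrow and blue for kidney, with a line at each group mean. Col4a1 in marrow went from 65.6 to 83.2 CPM with vehicle to 328 to 951 CPM with oxaliplatin, Col14a1 in marrow fell, Col6a1 in kidney was scattered in the treated group, and Col4a3 in kidney overlapped between the groups.

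Marrow cell markers moved with these genes, and their part in the collagen changes was not tested. Their counts stand against 11.6% of all genes called higher and 11.8% called lower, 23.3% in all, and the share of fibroblast, pericyte and smooth muscle genes called was close to that. Of 8 marrow stroma and adipocyte genes 5 were higher, led by Plin1 (6.92), Lpl (3.04), Fabp4 (2.93) and Adipoq (2.89, log2). These 4 are the adipocyte genes of the list, and the 3 genes not called are among its stromal genes, Cxcl12, Lepr, Kitl and Pdgfra. The sum of the list, which holds both kinds, was 1381 to 1830 CPM with vehicle and 2284 to 4454 CPM with oxaliplatin. Endothelial genes were higher for 4 of 8, with sums of 443 to 557 and 612 to 1026 CPM, and fibroblast, pericyte and smooth muscle genes for 2 of 8 tested, with overlapping sums of 164 to 190.0 and 133 to 255 CPM. Osteoblast and osteocyte genes were lower for 3 of 10, including Ibsp (-1.86), with sums of 169 to 231 and 80.6 to 152 CPM. Skeletal muscle genes were higher for 7 of 8 and their sums, 14.6 to 129 and 56.3 to 952 CPM, overlapped. Among 8 chondrocyte genes 5 were tested and 1 was higher, Comp (5.39), and the sums of 3.88 to 7.56 and 19.0 to 198 CPM differed almost wholly through Comp, at 2.04 to 2.58 and 15.8 to 194 CPM. Chad (-0.13) and Cnmd (-0.65) were not called, and Acan, Matn3 and Hapln1 were too low to test. Of 9 hematopoietic genes 4 were lower, among them the hemoglobin genes, and the sum was 21075 to 35964 CPM with vehicle and 4827 to 8717 CPM with oxaliplatin. With the hemoglobin genes left out of the library totals, all 21 members remained called.

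In kidney, 18 of 38 members tested were higher and 4 lower, where 11.5% of all 19293 genes tested were called (7.68% higher and 3.81% lower). Summed collagen was 1779 to 1979 CPM with vehicle and 2645 to 3486 CPM with oxaliplatin, without overlap. The median log2 fold change of the members was 0.64, against 0.02 for all genes, and 17 of the higher and all 4 of the lower members had groups that did not overlap, where 20.7% of all genes tested did not overlap (9.69% higher and 11.0% lower). The 16 not called had log2 fold changes from -0.68 to 0.77, and 6 members, Col9a1, Col9a2, Col9a3, Col11a1, Col22a1 and Col28a1, were too low to test. Of all 2216 called genes 66.8% were higher, and with scaling by library size alone 82.7%, when the median of all genes moved to 0.16, and 22 members were again called, without Col27a1 and with Col17a1. The share of collagen VI in the collagen level was 3.96% ± 0.182 with vehicle and 17.2% ± 5.79 with oxaliplatin, and that of collagen IV 43.7% ± 2.61 with oxaliplatin.

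**Figure D3:**
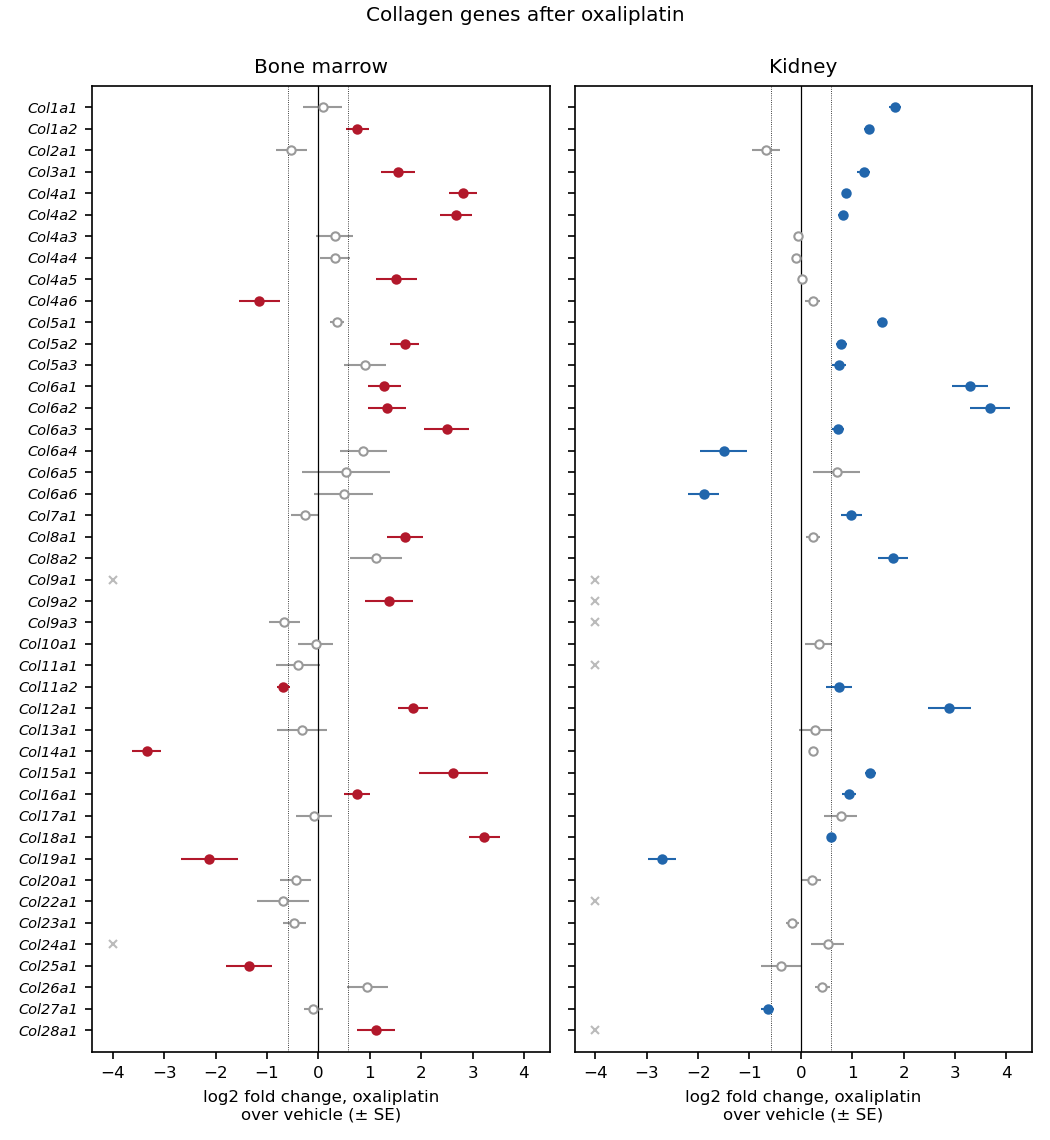
Log2 fold change of oxaliplatin over vehicle with its SE for each collagen gene, in bone marrow and in kidney, ordered by the numbers in the symbol, with filled points for called genes, open points for those not called and a grey cross at the left edge for genes not tested. In marrow Col18a1 and Col4a1 lie farthest to the right and Col14a1 farthest to the left; in kidney Col6a2 and Col6a1 lie farthest to the right and Col19a1 farthest to the left.

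Collagen VI gave the largest rises in kidney. Col6a2 was 9.07, 10.4, 9.76, 10.6 and 11.3 CPM with vehicle and 164, 54.0, 99.8, 114 and 227 CPM with oxaliplatin, 12.9-fold higher (log2 fold change 3.69 ± 0.39, adjusted p = 0.000232). Col6a1 was 16.1, 18.3, 20.95, 17.4 and 22.2 CPM with vehicle and 226, 84.8, 145, 161 and 316 CPM with oxaliplatin, 9.82-fold higher (log2 fold change 3.30 ± 0.35, adjusted p = 0.000247). The lowest treated mouse exceeded every vehicle mouse for both genes, but the treated mice spread widely, with mouse 5 highest, mouse 1 next and mouse 2 lowest. Col6a3, the third classical chain, rose much less (log2 fold change 0.73 ± 0.11, adjusted p = 0.000289). The other chains of the class fell or were not called: Col6a6 was 3.28, 1.71, 2.38, 2.25 and 2.55 CPM with vehicle and 0.251, 0.640, 0.791, 1.05 and 0.540 CPM with oxaliplatin (log2 fold change -1.89 ± 0.30, adjusted p = 0.000193), and Col6a4 fell (-1.50 ± 0.46, adjusted p = 0.021) from under 1 CPM, a call lost without treated mouse 1, 4 or 5 (adjusted p 0.0503 to 0.0518).

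Of the fibril-associated class Col12a1 was 7.58, 9.34, 9.16, 9.30 and 10.2 CPM with vehicle and 80.6, 28.3, 40.1, 62.1 and 127 CPM with oxaliplatin (log2 fold change 2.89 ± 0.41, adjusted p = 0.0012), with the treated mice in the same order as for Col6a1. Col19a1 was 4.26, 2.74, 4.19, 3.22 and 5.87 CPM with vehicle and 0.287, 0.505, 0.791, 0.737 and 0.750 CPM with oxaliplatin (log2 fold change -2.71 ± 0.27, adjusted p = 3.18e-06), so that every treated mouse of this tissue, as of marrow, was below every vehicle mouse. Col16a1 rose (0.94 ± 0.14, adjusted p = 0.000245).

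Fibril-forming chains rose for 7 of 10 tested. Col1a1 was 20.2, 21.7, 26.0, 18.9 and 23.2 CPM with vehicle and 62.5, 83.0, 69.2, 89.9 and 87.1 CPM with oxaliplatin (log2 fold change 1.83 ± 0.11, adjusted p = 2.16e-08). Col1a2 was 64.9, 63.7, 61.3, 61.3 and 70.5 CPM with vehicle and 150.2, 141, 146, 171 and 197 CPM with oxaliplatin (log2 fold change 1.32 ± 0.09, adjusted p = 2.48e-08), and Col3a1 was 29.8, 30.8, 26.8, 27.9 and 26.2 CPM with vehicle and 48.2, 77.5, 63.9, 82.9 and 58.3 CPM with oxaliplatin (log2 fold change 1.22 ± 0.12, adjusted p = 1.33e-05). Col5a1 was 15.2, 17.3, 15.7, 15.9 and 14.7 CPM with vehicle and 49.3, 41.4, 42.6, 42.5 and 59.3 CPM with oxaliplatin (log2 fold change 1.58 ± 0.10, adjusted p = 1.37e-08). In each of these every treated mouse lay above every vehicle mouse. Col5a2 (0.79), Col5a3 (0.74) and Col11a2 (0.74, adjusted p = 0.0317) also rose, the last of these a call lost without vehicle mouse 1, 3 or 5 or treated mouse 4 or 5 (adjusted p 0.0511 to 0.0833). Col27a1, among the most abundant collagens of vehicle kidney, fell (-0.64 ± 0.13, adjusted p = 0.00226), and without treated mouse 1 by under 1.5-fold (-0.52).

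Collagen IV split by chain. Col4a1 was 241, 236, 223, 232 and 259.9 CPM with vehicle and 427, 439, 395, 391 and 553 CPM with oxaliplatin (log2 fold change 0.89 ± 0.09, adjusted p = 3.14e-06) and Col4a2 was 191, 179, 183, 193 and 212 CPM with vehicle and 331, 324, 291, 302 and 439.5 CPM with oxaliplatin (log2 fold change 0.82 ± 0.10, adjusted p = 1.89e-05), both without overlap. The glomerular chains did not pass: Col4a3 was 236, 266, 265, 281 and 290.4 CPM with vehicle and 216, 277, 243, 268 and 282 CPM with oxaliplatin (log2 fold change -0.06 ± 0.08, adjusted p = 0.62), Col4a4 had -0.09 ± 0.07, adjusted p = 0.331 and Col4a5 0.02 ± 0.07, adjusted p = 0.881. With scaling by library size alone the estimates for Col4a3 and Col4a4 were positive (0.076 and 0.040). Col15a1 was 25.5, 24.5, 23.5, 22.3 and 20.1 CPM with vehicle and 46.8, 57.5, 54.4, 71.0 and 66.0 CPM with oxaliplatin (log2 fold change 1.35 ± 0.10, adjusted p = 1.97e-07). Col18a1 was 195, 180.3, 171, 181 and 201 CPM with vehicle and 264, 328, 267, 268 and 269.5 CPM with oxaliplatin, 1.51-fold higher (log2 fold change 0.59 ± 0.07, adjusted p = 2.81e-05), so close to the threshold of 1.5-fold that leaving out vehicle mouse 2, 3 or 4, or treated mouse 2, put it under (log2 0.52 to 0.58). Col8a2, a collagen of the cornea, was 0.299, 0.229, 0.518, 0.362 and 0.364 CPM with vehicle and 1.29, 1.28, 1.26, 1.30 and 1.05 CPM with oxaliplatin (log2 fold change 1.80 ± 0.29, adjusted p = 0.000243), and Col7a1, the anchoring fibril collagen, was 3.62, 3.62, 4.62, 3.86 and 3.73 CPM with vehicle and 5.10, 6.83, 5.54, 8.91 and 11.9 CPM with oxaliplatin (log2 fold change 0.98 ± 0.20, adjusted p = 0.00192).

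Kidney markers moved as well, and their part in the collagen changes was not tested. Of all genes 7.68% were called higher and 3.81% lower. Fibroblast, pericyte and smooth muscle genes were higher for 6 of 9, among them Rgs5 (2.96), Myh11 (1.07) and Acta2 (1.02), and their sum was 135 to 162 CPM with vehicle and 258 to 456 CPM with oxaliplatin. Rgs5 was 169.6, 48.2, 85.0, 138 and 211 CPM in treated mice 1 to 5, in the order of Col6a1. Podocyte genes were higher for 5 of 8 (sums 358 to 367 and 515 to 605 CPM), mesangial genes for 3 of 5 (126 to 149.7 and 320.5 to 461 CPM) and endothelial genes for 3 of 8 (402 to 419 and 496 to 663 CPM). The mesangial list holds Itga8, Pdgfrb, Gata3, Ren1 and Serpine2. Its Pdgfrb is also counted among the fibroblast, pericyte and smooth muscle genes, so these lists are not separate. Of 8 tubule genes 1, Kap, was lower (-1.90), at 831, 3509, 3500, 2897 and 362 CPM in treated mice 1 to 5 and 7258 to 8998 CPM with vehicle, lowest where Col6a1 was highest. The tubule sums were 25222 to 29767 and 17520 to 23319 CPM, a difference carried mostly by Kap, and 5 of the 8 genes had positive log2 fold changes (median 0.19). The hematopoietic sum was 189.6 to 298 CPM with vehicle and 36.6, 464, 152, 449 and 34.0 CPM in treated mice 1 to 5, mostly hemoglobin RNA, and was lowest in mice 1 and 5, where Col6a1 was highest. Treated mice 2, 3 and 4 had Kap at 2897 to 3509 CPM, also below vehicle, and Col6a1, Col6a2 and Col12a1 above every vehicle mouse. How Kap or hemoglobin RNA relates to the collagen genes was not tested. Injured tubule genes were higher for 2 of 7 tested, Lcn2 (2.06) and Spp1 (0.93), with sums of 659 to 727 and 843 to 953 CPM, while Havcr1 was not called (0.11) and Krt20 was too low to test.

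Across the tissues 12 members were called higher in both (Col1a2, Col3a1, Col4a1, Col4a2, Col5a2, Col6a1, Col6a2, Col6a3, Col12a1, Col15a1, Col16a1 and Col18a1), Col19a1 was called lower in both, and Col11a2 was lower in marrow and higher in kidney. A fit of all 20 libraries tested whether the response differed between the tissues, each library taken as independent. It called 17 of 43 members, 8 with the response shifted upward in kidney relative to marrow and 9 the other way, where 23.7% of all 24321 genes were called. The marrow rise exceeded the kidney rise for Col18a1 (kidney minus marrow log2 -2.70 ± 0.31, adjusted p = 1.24e-06), Col4a1 (-1.99 ± 0.29, adjusted p = 2.21e-05), Col4a2 (-1.91 ± 0.32, adjusted p = 0.000128) and Col6a3 (-1.83 ± 0.47, adjusted p = 0.00568). The kidney response exceeded the marrow response for Col6a2 (2.28 ± 0.52, adjusted p = 0.00254), Col6a1 (1.94 ± 0.45, adjusted p = 0.00286), Col1a1 (1.68 ± 0.45, adjusted p = 0.00803) and Col5a1 (1.15 ± 0.19, adjusted p = 5.78e-05). Col14a1 had the largest difference (3.51 ± 0.28, adjusted p = 7.64e-09), having fallen in marrow and having a kidney log2 fold change of 0.24 ± 0.09, adjusted p = 0.0581. Col5a2 was called in the direction of marrow (-0.95 ± 0.32, adjusted p = 0.0273), and not without vehicle mouse 2 or treated mouse 3 of marrow or treated mouse 2 of kidney (adjusted p 0.0508 to 0.0540). For Col12a1 and Col3a1, called in both tissues, the difference of the responses was not called (0.99 ± 0.47, adjusted p = 0.123 and -0.40 ± 0.38, adjusted p = 0.459).

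**Figure D4:**
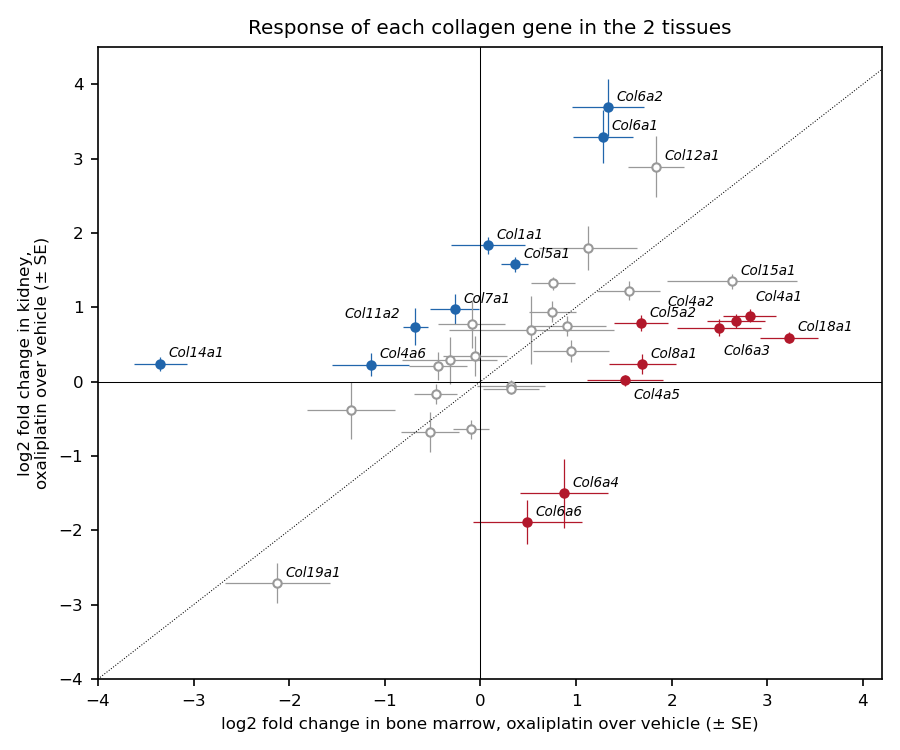
Log2 fold change of each collagen gene in bone marrow (horizontal) and in kidney (vertical) with bars of 1 SE, a dotted line of equal response and colour for genes whose response differed between the tissues. Blue marks a response shifted upward in kidney relative to marrow, whatever its size, red the other way, and open grey a difference not called. Col6a1 and Col6a2 lie above the line, Col4a1, Col4a2, Col6a3 and Col18a1 under it, and Col14a1 far to the left.

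Ratios between chains that assemble into 1 molecule do not depend on library scaling. They were compared in each mouse as log2 ratios of CPM by the exact two-sided permutation test over 5 against 5 mice, whose smallest p is 0.00794, with adjustment over 12 ratios. The ratio Col6a3/Col6a1 rose in marrow, with -0.51 ± 0.25 with vehicle and 0.54 ± 0.43 with oxaliplatin (difference 1.06, exact p = 0.00794, adjusted p = 0.019), and fell in kidney, with 0.74 ± 0.27 with vehicle and -1.72 ± 0.85 with oxaliplatin (difference -2.46, exact p = 0.00794, adjusted p = 0.019). The ratio Col5a1/Col5a2 moved the opposite way, with 1.74 ± 0.25 with vehicle and 0.50 ± 0.36 with oxaliplatin in marrow (difference -1.25, exact p = 0.00794, adjusted p = 0.019) and -0.64 ± 0.18 with vehicle and 0.14 ± 0.13 with oxaliplatin in kidney (difference 0.78, exact p = 0.00794, adjusted p = 0.019). For all 4 of these every treated mouse lay outside the vehicle range. Col1a1/Col1a2 differed in kidney (difference 0.51, exact p = 0.0159, adjusted p = 0.0317), though not without any 1 of 7 mice (adjusted p = 0.0544 without vehicle mouse 1, 4 or 5 or treated mouse 2, 3, 4 or 5, exact), and missed the threshold in marrow (difference -0.75, exact p = 0.0317, adjusted p = 0.0544). Col6a1/Col6a2 fell slightly in kidney (difference -0.36, exact p = 0.00794, adjusted p = 0.019). The ratio of Col4a1 to Col4a2, the head-to-head pair, differed by 0.16 in marrow (adjusted p = 0.0595, exact) and 0.07 in kidney (adjusted p = 0.0847, exact), values far smaller than the changes of either gene.

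**Figure D5:**
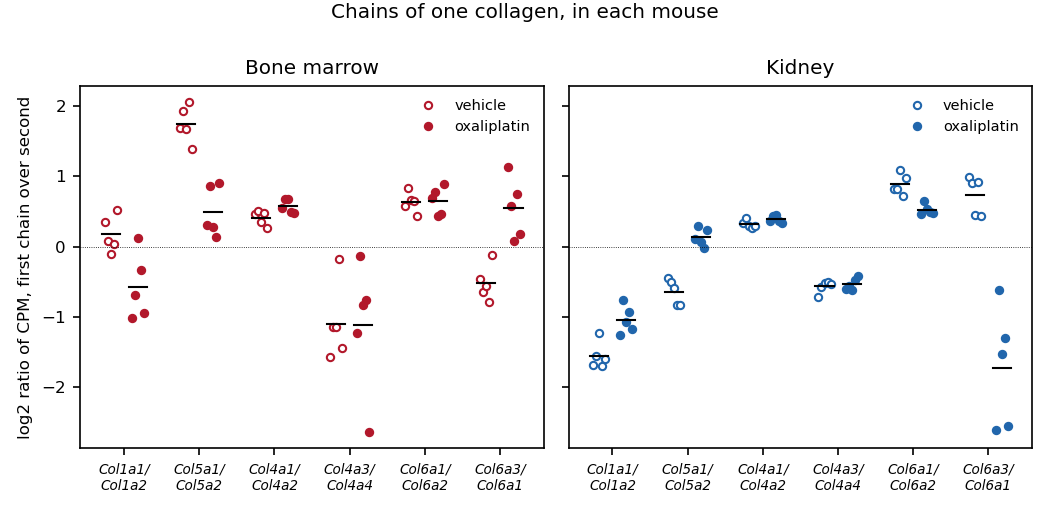
Log2 ratio of chains of 1 molecule in each mouse, for 6 pairs in bone marrow and kidney, open points for vehicle and filled points for oxaliplatin with a line at the mean. Col6a3/Col6a1 is higher after oxaliplatin in marrow and lower in kidney, and Col5a1/Col5a2 shows the opposite.

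Genes that fold, modify and process collagen rose in part. In marrow 12 of 25 were higher (11.6% of all genes). Of those with a mean of at least 1 CPM in either group, P4ha2 (1.63 ± 0.32, adjusted p = 0.00162), a prolyl hydroxylase, rose most. Plod2 (1.38), a lysyl hydroxylase, Serpinh1 (1.28), a chaperone of procollagen, and P3h2 (1.18) came next. P4ha3, under 1 CPM on average in both groups, had a larger rise (2.22 ± 0.61, adjusted p = 0.0134). In kidney 8 of 24 tested were higher (7.68% of all genes), led by Adamts2 (1.14 ± 0.14, adjusted p = 1.90e-05), which removes the N-propeptide, P4ha1 (0.91), Fkbp10 (0.84) and Plod2 (0.82). Crosslinking and fibril organising genes were higher for 7 of 13 in marrow, led by Fmod (3.89 ± 0.30, adjusted p = 9.91e-07), Pxdn (2.27), which crosslinks collagen IV, Lox (2.20) and Sparc (1.77). They were higher for 5 of 12 tested in kidney, led by Lox, the lysyl oxidase (4.06 ± 0.60, adjusted p = 0.00136), at 29.1, 5.22, 10.00, 13.0 and 34.2 CPM in treated mice 1 to 5, Loxl2 (1.87), Sparc (1.09) and Dcn (0.92). The order of the treated mice for Lox was again that for Col6a1.

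Genes of collagen breakdown and its inhibitors were higher for 7 of 10 in marrow, among them Mmp2 (3.11 ± 0.39, adjusted p = 0.000102), Mmp13 (1.76), Ctsk (1.60) and the inhibitor Timp1 (1.39). In kidney 3 of 7 tested were higher, Mmp14 (1.65), Mmp2 (1.17) and Ctsk (0.78), and Mmp13, named after its value was seen, was lower from under 1 CPM (-1.96). The summed level of this list overlapped in marrow, at 1742 to 2209 CPM with vehicle and 1409 to 3057 CPM with oxaliplatin. In kidney the sum was lower in every treated mouse, at 1256 to 1385 CPM with vehicle and 827 to 1152 CPM with oxaliplatin. Most single genes did not follow it, as 5 of the 7 tested had positive log2 fold changes and only Mmp13 was called lower. The sum includes the inhibitors Timp1, Timp2 and Timp3 and is not a measure of breakdown. Receptors were called at about the share of all genes, 23.3% in marrow and 11.5% in kidney. Of 11 collagen receptors 2 were higher in marrow, Ddr1 (1.24) and the uptake receptor Mrc2 (1.21), and of 10 tested in kidney 1 was higher, Itga11 (1.84), a fibroblast integrin chain that binds fibrillar collagen. Median log2 fold changes of the lists in marrow were 0.55 for folding, 0.98 for crosslinking, 1.02 for breakdown and 0.25 for receptors, and in kidney 0.45, 0.49, 0.57 and 0.45.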

How the data were processed

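RNA from bone marrow and kidney of 10 mice per tissue was measured. The authors mapped reads with STAR to the Ensembl release 101 mouse genome and deposited raw counts per gene for each library, not normalized; use of strand in counting is not given in the sources used here. The methods describe a SMARTer kit and the sample records removal of ribosomal RNA with random priming. Samples were grouped from their labels. Where nothing but the group separates the libraries, p-values measure the spread between these mice.

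Tissues were fitted separately with edgeR 4.0.16 (limma 3.58.1, R 4.3.3): filterByExpr (minimum count 10), TMM factors, then its two-sided robust quasi-likelihood test, with p adjusted by Benjamini-Hochberg across every gene tested. A gene was called at an adjusted p under 0.05 and more than 1.5-fold. SE is the log2 fold change divided by the root of its F statistic. The tissue by treatment interaction and the vehicle contrast were fitted in all 20 libraries. The log2 ratios of chains used a prior count of 2 and the exact permutation test (SciPy 1.17.1). Transcript lengths came from GENCODE release 21 of GRCm38. Exonic bases were shared with another gene by 13 members, at most 563 bases in Col4a3 (5.65%) and at most 6.07% in Col9a3 (234 bases). The procedure was tested on simulated data.

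Alternatives were DESeq2 1.42.0, its size factors in edgeR, library size alone, a replicate block, filters of 1 count in total or 10 in each library, omission of hemoglobin genes, Y-linked expression as covariate, other fold thresholds, another prior count, medians and each mouse left out. Per mouse values were named for called members with a mean of at least 1 CPM, up to 12 per tissue by size of change, and for 8 fixed chains. Other lists name up to 4 called genes at that mean, apart from P4ha3 in marrow and Mmp13 in kidney. The members and lists were chosen with earlier results of these data known.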

Additional observations from a re-analysis of the deposited data

Results flagged for a closer look

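In 110 groups of 5 mice tested for a sample far from the rest, 7 were found, where chance gives about 1 in 20. In bone marrow, Col15a1 was 52.8 CPM in treated mouse 4 against 3.37 to 15.4 CPM in the other treated mice, and Col25a1 was 3.51 CPM in vehicle mouse 5 against 1.92 to 2.03 CPM in the other vehicle mice. In kidney, treated mouse 5 stood apart for Col4a2 (439.5 CPM against 291 to 331 CPM), Col16a1 (41.0 CPM against 25.7 to 28.2 CPM) and, on the low side, Col8a2 (1.05 CPM against 1.26 to 1.30 CPM). Col18a1 was 328 CPM in treated mouse 2 of kidney against 264 to 269.5 CPM, and Col7a1 was 4.62 CPM in vehicle mouse 3 against 3.62 to 3.86 CPM.

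The response to oxaliplatin differed between kidney and marrow for 17 collagen genes by edgeR's interaction test, given as kidney minus marrow on the log2 scale. It was shifted upward in kidney for Col14a1 (3.51), Col6a2 (2.28), Col6a1 (1.94), Col1a1 (1.68), Col11a2 (1.36), Col4a6 (1.31), Col7a1 (1.20) and Col5a1 (1.15). The shift was toward marrow for Col18a1 (-2.70), Col6a6 (-2.44), Col6a4 (-2.43), Col4a1 (-1.99), Col4a2 (-1.91), Col6a3 (-1.83), Col4a5 (-1.56), Col8a1 (-1.52) and Col5a2 (-0.95).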

How the results depend on the processing

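Across the alternatives of scaling, filter, model and left-out mouse in which they were tested, 12 of the 21 members called in marrow and 18 of the 22 in kidney were called in the same direction, and 8 and 4 were not called without 1 or another mouse. Other thresholds lost some of these members too. DESeq2 in place of edgeR called all 21 in marrow, and in kidney it lost Col18a1 and gained Col2a1. Testing against a 1.5-fold change gave 2730 called genes in marrow, with 11 members (9 higher, 2 lower), and 454 in kidney, with 12 members (10 higher, 2 lower). With a fold change beyond 2 there were 3231 genes in marrow and 941 in kidney, with 12 members (9 higher) in kidney, and without a fold threshold 5679 genes in kidney. Of the 5 falls in marrow, 2 remained in number with library size alone. A minimum of 10 counts in every sample left 2 falls in marrow and 1 of 4 in kidney because it removes genes that are low in treated mice: Col4a6, Col19a1 and Col25a1 in marrow and Col6a4, Col6a6 and Col19a1 in kidney were not tested under it. Leaving out 1 mouse gave 2 to 5 falls in marrow (2 or 3 without vehicle mouse 2, 3, 4 or 5 or treated mouse 1 or 2) and 2 to 5 in kidney (2 without treated mouse 1), 16 to 22 called members in marrow, 20 to 22 in kidney and 17 to 18 in the interaction.

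Values that were not called changed sign in places. Col1a1 in marrow was -0.0065 with the replicate block and -0.18 to 0.32 without 1 mouse, and Col27a1 in marrow 0.049 with library size alone and -0.21 to 0.0052 without 1 mouse. Col4a3 in marrow was -0.022 to 0.51 without 1 mouse. In kidney Col4a3 was 0.076 and Col4a4 0.040 with library size alone, and Col4a3 was -0.10 to 0.0059 and Col4a5 -0.023 to 0.053 without 1 mouse.

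As differences of medians, which the exact test over 5 against 5 mice can hardly call after adjustment even without overlap, the chain ratios were, in marrow, -1.38 for Col5a1/Col5a2, 1.14 for Col6a3/Col6a1 and 0.32 for Col4a3/Col4a4, and in kidney 0.52 for Col1a1/Col1a2, 0.70 for Col5a1/Col5a2, -0.33 for Col6a1/Col6a2, -2.43 for Col6a3/Col6a1 and -0.032 for Col4a3/Col4a4. Without 1 mouse the marrow differences of means were -0.92 to -0.64 for Col1a1/Col1a2, 0.13 to 0.19 for Col4a1/Col4a2, -0.27 to 0.35 for Col4a3/Col4a4 and -0.038 to 0.076 for Col6a1/Col6a2, and the kidney ones 0.44 to 0.59 for Col1a1/Col1a2, 0.059 to 0.093 for Col4a1/Col4a2 and -0.0032 to 0.053 for Col4a3/Col4a4. The cause of these changes was not tested.

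The labels number the mice of each group 1 to 5 without saying that a number marks a shared litter or day. Deviations of same-numbered mice correlated at -0.12 to 0.23 in marrow and -0.15 to 0.08 in kidney between treatments, and at -0.09 to 0.21 between the tissues, where 2 of 10 pairs were over 0.1. The rule for taking numbers as pairs, every correlation over 0.1, was not met, which does not show that the mice were unpaired. With the replicate block 18 members were called in marrow, 21 in kidney and 17 in the interaction, among 4968, 2017 and 5350 called genes. Members under 1 CPM rest on few counts, and with 5 mice a group a change that was not called may still be present.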
